A study of Homo sapiens with 4 samples.

Results

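The protein-coding genes of chromosome 19 whose symbol starts with ZNF were described here by the BrdU peaks that fall on them. GENCODE v44 holds 249 such genes among the 1476 protein-coding genes of the chromosome, and among 20046 in the genome. The rule that picked them used symbol and position and no peak count. In all, 85 lie on the p arm and 164 on the q arm, and 235 belong to 1 of 10 clusters, a cluster being at least 5 ZNF genes with neighbours no more than 500 kb apart. The peaks came from BrdU-Seq in BJ-hTERT cells, an established line of human foreskin fibroblasts immortalized with telomerase. The cells were arrested by serum starvation, released, and given BrdU, a thymidine analogue that is built into newly made DNA, for a pulse before 16, 19, 22, 24 and 28 h. No other agent or genotype was compared here, although the study also ran BrdU-Seq with inhibitors of transcription, ATM and ATR. The study took a BrdU peak as a place where replication forks slow, pause or stall in many cells. The 4 RNAPII and PCNA ChIP-Seq samples of the series, taken at 14 and 16 h, were not analysed here.

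The list held 33295 peaks of 5 timepoints pooled, as hg38 positions, of which 928 lie on chromosome 19. The study made 2 repeats, but how their peaks entered the list is not given. Peaks that overlap or touch were merged, which left 594 sites on the chromosome. Neither timepoint, repeat nor signal was given with a peak, so no value below has a replicate and the depth behind it is unknown. The 95% intervals (Wilson for shares, exact Poisson for densities, exact conditional for ratios of densities) cover counting error only, and no test between samples was possible.

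C2H2 zinc finger proteins read DNA through fingers, short modules in which a pair of cysteines and a pair of histidines hold a zinc ion, placed one after another along the protein. In most ZNF genes the whole row of fingers is coded by a single long last exon, so that exon is itself a tandem repeat at the level of DNA. Many of the proteins also carry a KRAB domain, which recruits TRIM28 and through it the histone H3 lysine 9 methyltransferase SETDB1, and which is best known for silencing transposable elements; the genes multiplied by tandem duplication, which is why they stand in clusters.

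The BrdU sites that fell on ZNF genes are shown first, because the main result rests on what they are made of. In the gene-strand sequences that follow, from hg38, the capitals mark the codons of the cysteines and histidines of complete fingers. The ZNF493 site lies at chr19:21423954-21424217 on the plus strand, over fingers 7 to 10 of 18. The ZNF208 site lies at chr19:21973634-21973879 on the minus strand, over fingers 6 to 9 of 36. The ZNF492 site lies at chr19:22664722-22664929 on the plus strand, over fingers 8 to 10 of 12. The ZNF91 site lies at chr19:23360195-23360390 on the minus strand, over fingers 22 and 23 of 31, with a degenerate finger between them that has no capitals. The ZNF761 site lies at chr19:53456382-53456580 on the plus strand, over fingers 13 to 15 of 17, and is the only site over fingers outside the cluster next to the centromere.
ZNF493: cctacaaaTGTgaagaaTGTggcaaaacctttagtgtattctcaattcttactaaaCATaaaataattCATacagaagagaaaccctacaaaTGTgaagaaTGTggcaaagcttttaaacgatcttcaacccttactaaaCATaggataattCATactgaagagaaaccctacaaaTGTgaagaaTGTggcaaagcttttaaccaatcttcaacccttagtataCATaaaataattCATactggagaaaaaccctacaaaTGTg
ZNF208: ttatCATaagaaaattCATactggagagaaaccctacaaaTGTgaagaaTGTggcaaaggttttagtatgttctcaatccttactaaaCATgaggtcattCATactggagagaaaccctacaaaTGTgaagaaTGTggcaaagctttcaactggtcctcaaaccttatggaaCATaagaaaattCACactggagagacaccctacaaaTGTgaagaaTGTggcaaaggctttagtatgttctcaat
ZNF492: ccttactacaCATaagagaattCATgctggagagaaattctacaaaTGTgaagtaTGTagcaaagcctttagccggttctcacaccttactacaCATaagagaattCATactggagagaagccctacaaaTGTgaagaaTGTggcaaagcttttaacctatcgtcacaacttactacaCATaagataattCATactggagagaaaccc
ZNF91: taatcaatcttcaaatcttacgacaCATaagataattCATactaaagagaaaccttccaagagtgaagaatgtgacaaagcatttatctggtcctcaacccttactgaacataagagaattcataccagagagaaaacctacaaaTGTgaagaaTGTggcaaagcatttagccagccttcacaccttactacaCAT
ZNF761: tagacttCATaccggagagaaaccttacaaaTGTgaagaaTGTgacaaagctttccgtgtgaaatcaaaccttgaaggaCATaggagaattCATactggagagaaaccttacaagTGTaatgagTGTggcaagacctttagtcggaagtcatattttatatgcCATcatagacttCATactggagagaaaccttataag

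The repeat can be read directly when a site is cut at the length of a finger with its linker, 28 residues or 84 bases. The ZNF729 site lies at chr19:22315253-22315525 on the plus strand, over fingers 13 to 16 of 34. Its first 3 stretches of 84 bases are given with capitals where a base differs from the same place in the stretch before.
ZNF729 unit 1: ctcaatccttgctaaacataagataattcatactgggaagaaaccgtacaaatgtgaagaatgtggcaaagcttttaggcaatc
ZNF729 unit 2: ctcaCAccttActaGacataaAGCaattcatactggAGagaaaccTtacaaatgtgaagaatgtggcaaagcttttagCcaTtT
ZNF729 unit 3: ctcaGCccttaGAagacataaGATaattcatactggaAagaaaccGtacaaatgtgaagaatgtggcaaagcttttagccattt
The second stretch equalled the first at 71 of 84 bases (84.5%), and the third equalled the second at 75 (89.3%).

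ZNF genes carried few BrdU peaks for their length. A peak overlapped 21 of the 249 genes, or 8.43% (interval 5.58 to 12.5%), against 14.1% of the 1227 other protein-coding genes of the chromosome (interval 12.3 to 16.2%) and 21.2% of all protein-coding genes. The intervals of the first 2 shares overlap at their ends, but the ZNF genes are also longer, with a median of 26.1 kb against 13.8 kb. The 21 genes held 33 peaks in 29 sites, which is 3.84 sites per Mb (interval 2.57 to 5.51) over the 7.55 Mb that ZNF genes cover. At the density of the other genes of the same length class, 91.0 sites would have been counted, so the ratio was 0.319 (interval 0.210 to 0.467). ZNF genes cover 12.9% of the known bases of the chromosome and held 4.88% of its sites.

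The share was lower for ZNF genes in each of the 5 length classes. None of the 25 ZNF genes under 10 kb, the shortest of which is ZNF524 with 3.12 kb, had a peak, which allows a share of up to 12%, against 13 of 444 other genes (2.93%). From 10 to 20 kb, 3 of 69 ZNF genes (4.35%) and 37 of 327 others (11.3%) had one. From 20 to 30 kb the counts were 3 of 60 (5%) and 33 of 164 (20.1%). Of the 70 ZNF genes from 30 to 60 kb, 8 had a peak (11.4%, interval 5.91 to 21.0%), against 50 of 207 others (24.2%, interval 18.8 to 30.4%). At 60 kb or more, 7 of 25 ZNF genes (28%, interval 14.3 to 47.6%) stood beside 40 of 85 others (47.1%, interval 36.8 to 57.6%). The intervals of these shares overlapped in all classes but the one from 20 to 30 kb. Counted as sites per Mb, ZNF genes of 10 kb or more had 2.63 to 4.49 over the 4 classes and other genes 10.5 to 13.8, and there the intervals did not overlap in any of the 4.

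**Figure D1:**
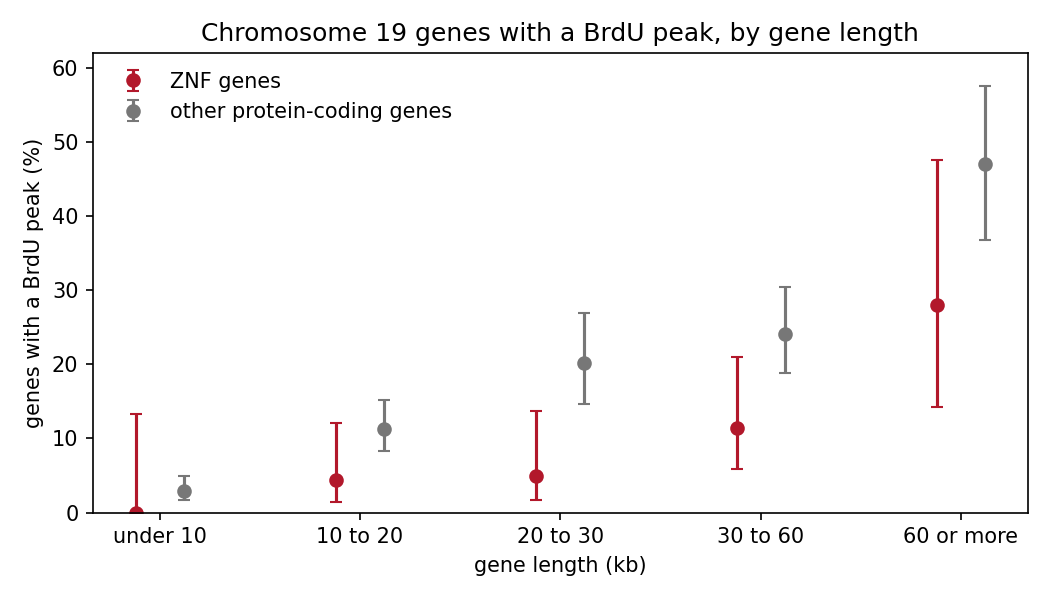
Share of chromosome 19 protein-coding genes with at least 1 BrdU peak (y axis, percent) by gene length (x axis, kb), for ZNF genes (red) and other genes (grey), with 95% Wilson intervals as bars. The red points lie below the grey ones in each class, from 0 against 2.93% under 10 kb to 28 against 47.1% at 60 kb or more.

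ZNF genes are richer in A and T than their neighbours on the chromosome, with a median of 56.4% against 46.0%, and nearly as unique, with medians of 92.2 and 93.1% for the share of 50-base words that occur once in the genome. With other genes of the same AT class as reference in place of length the ratio was 0.336, and with classes of unique share it was 0.305. In the highest AT class the ZNF genes had the higher density, but the intervals overlapped. The 43 ZNF genes of 60% AT or more held 14 sites, 9.37 per Mb (interval 5.12 to 15.7), whereas the 58 of 50 to 55% held 3 sites, 1.57 per Mb (interval 0.323 to 4.58). Only 9 other genes reach 60% AT, with 1 site among them, 2.45 per Mb (interval 0.0621 to 13.7). All of the 14 ZNF sites but that in ZNF583 lay in the cluster next to the centromere, so AT content and that cluster cannot be told apart here.

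Other genes inside the ZNF clusters had a low density too, though some of them overlap ZNF genes. The 107 other protein-coding genes that lie inside ZNF clusters were also poor in peaks, with 6 of them hit (5.61%) and 2.03 sites per Mb of summed gene length (interval 0.815 to 4.18). Against these genes alone the ratio of the ZNF genes was 1.94 (interval 0.831 to 5.24), an interval that includes 1. Of the sites in gaps, only those in ADAMTS10, MUC16 and SSC5D lay in another coding gene. Part of the 7 sites of these other genes can therefore be sites in ZNF genes counted again, so the 2 groups are not separate. Other tandem families of the chromosome, which include the kallikreins, the pregnancy-specific glycoproteins (PSG), cytochromes P450 and olfactory receptors, had peaks in 21 of 116 genes (18.1%). All 10 PSG genes had one, and these 10 held 49 sites, but none of 20 olfactory receptor genes did. Leaving all tandem families out of the reference gave a ratio of 0.378 (interval 0.248 to 0.556). Zinc finger genes of the chromosome under other names, such as ZFP, ZSCAN and ZBTB, had a peak in 2 of 24 cases (8.33%, interval 2.32 to 25.8%), ZFR2 and ZSWIM4, and that interval includes the shares of the ZNF genes and of the other genes.

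The 10 clusters differed widely. Numbered from the tip of the p arm, the fourth cluster of that arm lies next to the centromere, from ZNF101 to ZNF254 (chr19:19668796-24129968). It is the widest, with 37 genes in 4.46 Mb, and 11 of these genes (29.7%, interval 17.5 to 45.8%) held 18 of the 29 sites. Their density was 10.3 sites per Mb (interval 6.08 to 16.2), and the length-class ratio for these genes alone was 0.922 (interval 0.539 to 1.48). In the other 3 clusters of the p arm, 1 of 45 genes had a peak, ZNF441, at 0.943 sites per Mb (interval 0.0239 to 5.25). In the 6 clusters of the q arm, 7 of 153 genes had one, at 1.78 sites per Mb (interval 0.716 to 3.67). The 14 genes in no cluster included 2 with peaks, ZNF536 and ZNF574. Without the genes of the centromere-proximal cluster, the ratio to other genes of like length was 0.154 (interval 0.0761 to 0.279).

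Sites in the gaps between ZNF genes followed another pattern. The 195 gaps cover 7.67 Mb and held 21 sites, 2.74 per Mb (interval 1.69 to 4.18), in 13 gaps. The gaps of the centromere-proximal cluster, 2.71 Mb in all with a median of 69.5 kb, held none, which allows up to 1.11 sites per Mb. The second p-arm cluster had none in 0.317 Mb of ZNF genes, which allows up to 9.46 per Mb, and 5 sites in 0.966 Mb of gaps (5.17 per Mb, interval 1.68 to 12.1), so genes and gaps could not be told apart there. Of these gap sites 1 lies in ADAMTS10 and 1 in the mucin gene MUC16. The third q-arm cluster had 1 site in its genes, in ZNF428, and 6 in its gaps, 12.3 per Mb (interval 4.53 to 26.9). The last q-arm cluster, from ZNF264 to ZNF446, had no site in its 43 genes or its gaps over 1.29 Mb, which allows up to 2.33 per Mb. The gap with most sites, 4 in 92.3 kb, lies between ZNF628 and ZNF579 and includes SSC5D. Another 5 gaps held 2 sites each, from ZNF414 to ZNF558, ZNF565 to ZNF566, ZNF383 to ZNF875, ZNF428 to ZNF283 and ZNF229 to ZNF180. The 4 sites between ZNF565 and ZNF566 and between ZNF383 and ZNF875 stood apart from the sites in genes by their low AT content, 36.5 to 40.4%, and by having at most 9.84% unique 50-base words.

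**Figure D2:**
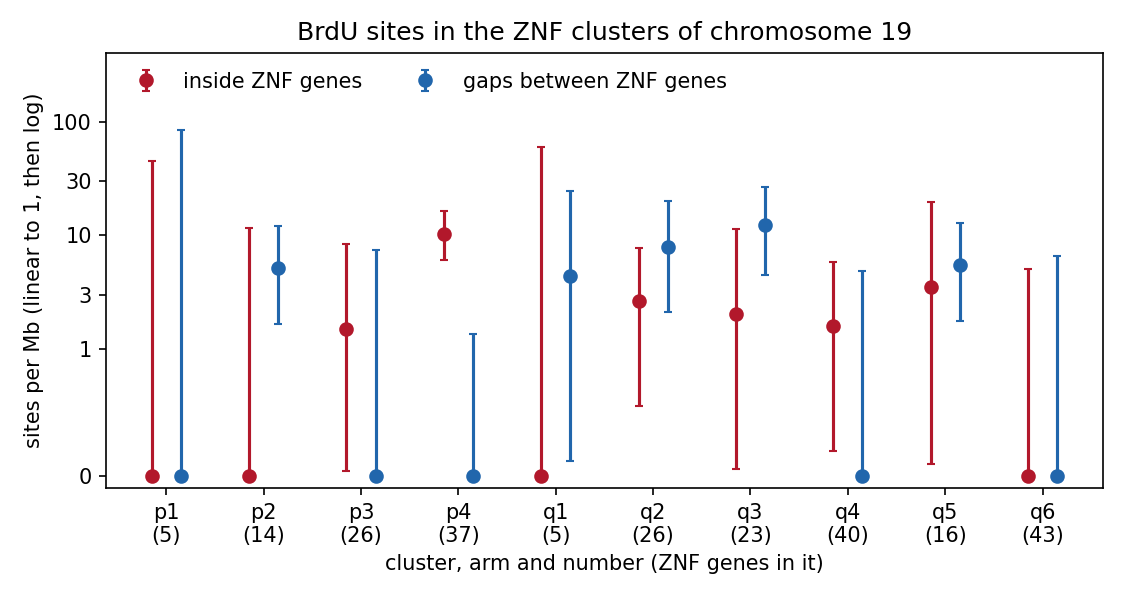
Sites per Mb (y axis, linear up to 1 and logarithmic above) inside ZNF genes (red) and in the gaps between them (blue) for each cluster, named by arm and number with its count of ZNF genes in brackets; bars are 95% exact Poisson intervals. In the cluster p4 the genes stand at 10.3 and the gaps at 0, with intervals that do not overlap. Of the 18 sites in these genes, 13 lay on the exons that code for fingers. The rest of the genes, at 2.95 (interval 0.959 to 6.89, not drawn), could not be told from the gaps (up to 1.36).

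Counted over whole clusters, the arms were alike in density within counting error. The p arm had 24 sites in 7.03 Mb (3.42 per Mb) and the q arm 23 in 7.39 Mb (3.11 per Mb), a ratio of 1.10 (interval 0.593 to 2.03). Genes and gaps, taken apart, differed in opposite directions. Inside ZNF genes the p arm had 6.75 sites per Mb (interval 4.06 to 10.5) and the q arm 1.78, a ratio of 3.79 (interval 1.52 to 10.7). In the gaps the p arm had 1.19 per Mb and the q arm 4.62, a ratio of 0.257 (interval 0.0736 to 0.734). Of the 19 sites in ZNF genes of p-arm clusters, 18 lay in the centromere-proximal cluster. Without that cluster the ratio inside ZNF genes was 0.529 (interval 0.0117 to 4.12). The gaps of that cluster, which are 2.71 of the 4.21 Mb of p-arm gaps, held no site. Without them the gap ratio was 0.719 (interval 0.206 to 2.05).

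The sites in ZNF genes lay on coding sequence more often than those of other genes. Of the 29 sites, 18 overlapped an exon (62.1%) and 14 a coding exon (48.3%, interval 31.4 to 65.6%), although coding bases make up 6.34% of the genes. In other genes of the chromosome, 16 of 299 sites were over a coding exon (5.35%, interval 3.32 to 8.51%), with 7.10% of bases coding. Counted by gene, 11 of the 249 ZNF genes had such a site, against 1.06% of the other genes. In the centromere-proximal cluster 13 of 18 sites were over a coding exon (72.2%, interval 49.1 to 87.5%), and among ZNF genes outside it 1 of 11 was (9.09%, interval 1.62 to 37.7%).

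All 14 coding sites overlapped zinc fingers. Fingers were found in the translated coding sequence of 247 genes, and in 243 of these the exon with most fingers is the last coding exon. In the centromere-proximal cluster, 10 of 37 finger exons had a site (27.0%, interval 15.4 to 43.0%), with 13 sites in 0.0618 Mb of finger-coding exon, or 210 per Mb (interval 112 to 360). The rest of the same genes, mostly introns, had 5 sites in 1.69 Mb (2.95 per Mb), so finger exons were 71.2 times as dense (interval 23.8 to 255). The interval of that rest, 0.959 to 6.89, overlapped that of the gaps of the cluster, 0 to 1.36. Finger exons elsewhere on the chromosome had 1 site in 210 exons, 3.11 per Mb (interval 0.0788 to 17.4), which made those of the cluster 67.5 times as dense (interval 10.1 to 2870).

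Among the genes of the cluster, ZNF208 had 3 sites, all over fingers of its last exon, covering fingers 6 to 9, 22 to 26 and 31 to 34. ZNF208 has 36 fingers in that exon, the most of any ZNF gene of the chromosome. ZNF99 also had 3 sites, 1 of them 671 bp wide over fingers 7 to 14 of 21, which was the widest site in any ZNF gene or cluster gap. Its other sites lay in the last exon beyond the coding part and in an intron, 1650 bp from an exon. ZNF493 had 2 sites over the same exon, and ZNF738 had 1 that reached its last finger and 1 in the same exon beyond the coding part. ZNF91, known as a repressor of SVA retrotransposons, had 1 site over fingers 22 and 23 of 31. Its other site lay outside the canonical transcript, 12727 bp from an exon of any transcript. ZNF506 had the only finger site made of 2 peaks, over fingers 1 to 5 of 8. ZNF253, ZNF429, ZNF729 and ZNF492 had 1 site each over their fingers. ZNF675 had 1 outside the canonical transcript, 17784 bp from an exon of any transcript.

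**Figure D3:**
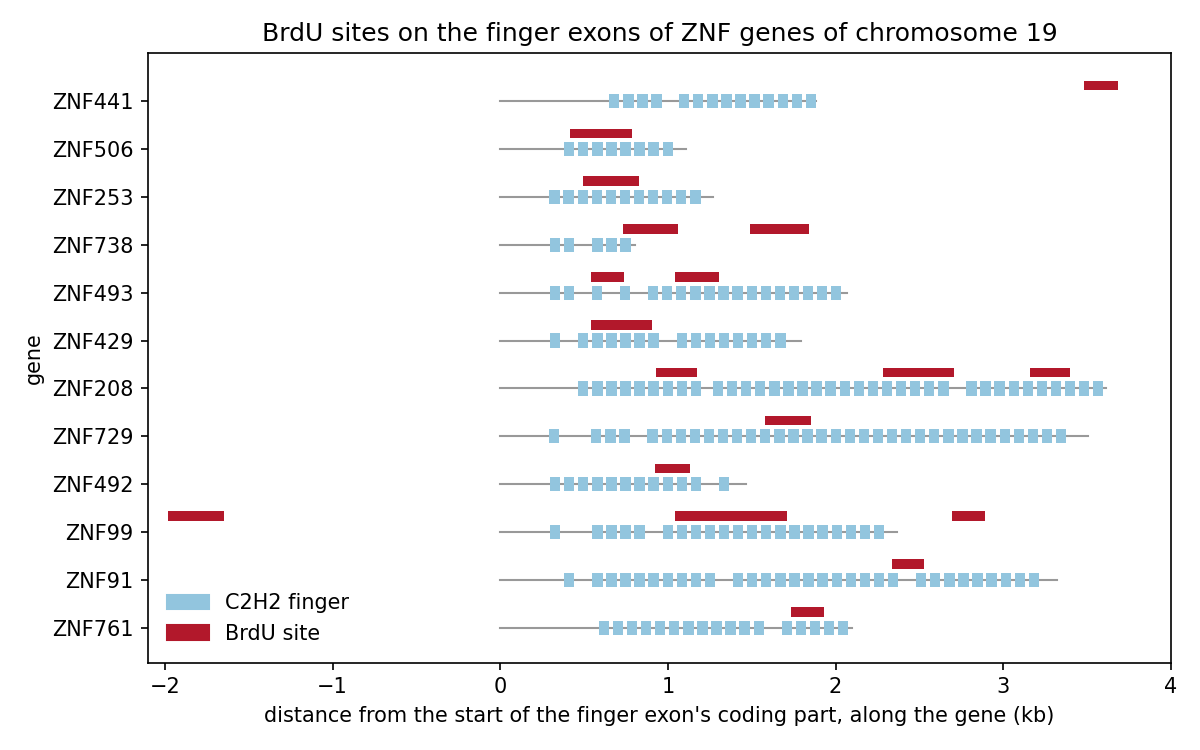
Coding part of the finger exon of each ZNF gene with a site in or near that exon, drawn along the gene (x axis, kb from the start of the coding part), with C2H2 fingers in blue and BrdU sites in red above them. Sites lie at early, middle and late fingers, 3 of them on ZNF208. ZNF738 and ZNF99 also have a site beyond the coding part, and ZNF441 has only such a site. ZNF99 has a further site before the coding part.

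The 4 genes of the cluster with most fingers, ZNF208, ZNF729, ZNF91 and ZNF99 with 21 to 36, all had a site over them, and the 27 finger exons without a site had 9 to 19 fingers. These 4 exons are also the longest of the cluster, from 2.37 to 3.61 kb, against a median of 1.48 kb for those without a site. Per Mb no trend was seen, with 480 sites in exons of under 10 fingers (interval 58.2 to 1735) and 469 in those of 20 or more (interval 172 to 1020). The exons with a site had a median of 16.5 fingers and those without 13, and the ranges overlapped, since ZNF738 and ZNF506 with 5 and 8 fingers had a site too. Finger exons of 20 or more fingers elsewhere on the chromosome, 13 in number, had no site, which allows up to 94.1 per Mb. Those of the cluster with 10 to 19 fingers had 5 sites in 29 exons, 111 per Mb (interval 36.2 to 260), and those elsewhere 1 site in 136 exons, 4.48 per Mb (interval 0.113 to 25.0).

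The finger exons of the cluster were more alike from finger to finger than those elsewhere. The share of bases equal to the base 84 positions on had a median of 73.3% in the cluster (range 50.1 to 77.2%) and 58.1% elsewhere (range 27.1 to 75.7%). Within the cluster the exons with and without a site had nearly the same medians, 73.7 and 73.1%. At a match of 60 to 70%, a range that both groups share, 3 of 10 exons of the cluster and 1 of 75 elsewhere had a site, at 227 per Mb (interval 46.8 to 663) and 8.16 per Mb (interval 0.207 to 45.5). At 70% or more, 7 of 26 in the cluster and none of 4 elsewhere had one. AT content, which was 63.1% at the median in the cluster and 57.8% elsewhere, likewise did not separate the exons with a site from those without in the cluster (63.9 and 63.1%).

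Some finger exons hold stretches that occur more than 1 time in the genome. Unique 50-base words made up a median of 89.6% of the finger exons of the cluster and 100% of those elsewhere. In the cluster, 4 of 6 exons below 80% had a site, 6 of 23 from 80 to 95%, and none of 8 at 95% or more. The densities were 433 per Mb (interval 159 to 942), 190 per Mb (interval 76.2 to 391) and 0, which allows up to 272 per Mb, so the classes could not be told apart. Elsewhere none of 18 exons below 80% had a site, which allows up to 103 per Mb. From 80 to 95%, 1 of 30 had one (20.0 per Mb, interval 0.507 to 112). At 95% or more none of 162 did, which allows up to 12.4 per Mb. In neither group, then, did an exon of 95% or more have a site, and 162 of the 210 exons elsewhere are of that class. By site, the unique share ran from 24.0% in ZNF492 to 100% in the coding site of ZNF91 and 1 of ZNF493, with a median of 82.7% over the 14 finger sites. Of the words sampled in the ZNF492 site, 71.9% also occurred in ZNF98, its neighbour, which had no peak although it is the longest ZNF gene without one (141 kb, followed by ZNF420 with 123 kb and ZNF254 with 96.6 kb). In the ZNF208 sites 29.3 to 50% of the words occurred elsewhere in ZNF208 itself. The part of read assignment in these counts was not tested.

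**Figure D4:**
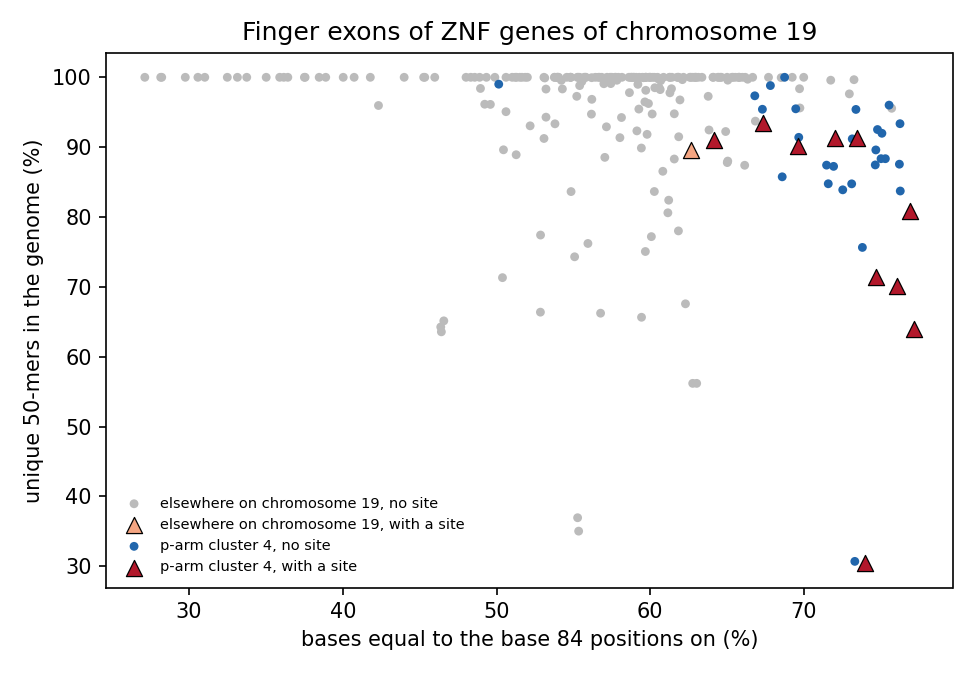
Finger exons of ZNF genes by the share of bases equal to the base 84 positions on (x axis, percent) and the share of 50-base words that occur once in the genome (y axis, percent), for the centromere-proximal cluster (p-arm cluster 4) and elsewhere; triangles have a BrdU site. The 10 triangles of the cluster lie at 64.1 to 77.2% match and at or below 93.4% unique, among exons of the cluster without a site.

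A run of 18 bases was the most frequent in the 14 finger sites, read on the gene's strand, and it covers the codons of the cysteine pair. It was chosen from those sites after they were seen, so its presence in them is a description.
Shared run: AAATGTGAAGAATGTGGC
On either strand, 12 of the 14 finger sites held it, with a median of 2.5 and at most 6 copies. It was present in 34 of the 37 finger exons of the cluster, whether or not they had a site, with a median of 6 copies, and in 1 of 210 finger exons elsewhere. Of the 15 other sites in ZNF genes 2 held it (13.3%), and of the 565 sites of the chromosome outside ZNF genes none did.

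The finger sites repeated at the length of a finger, as sites picked for lying over fingers are bound to do. A site was called a tandem array when at least 70% of its bases equalled the base at a fixed offset of up to 120 bp. Of the 14 finger sites 13 met this, all at 84 bp, with matches of 74.1 to 88.4%, and the exception was the ZNF738 site that runs past the last finger (64.5%). Of the 565 sites outside ZNF genes, 68 were arrays (interval of the share 9.61 to 15.0%), and none of them had its best match at 84 bp. Among the 15 other sites in ZNF genes, the ZNF738 site beyond the coding part also matched itself at 84 bp (81.0%), the ZNF99 site beyond the coding part did so at 83 bp (74.1%), and 4 were arrays in all. Over all 29 sites in ZNF genes, 17 were arrays (58.6%, interval 40.7 to 74.5%).

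**Figure D5:**
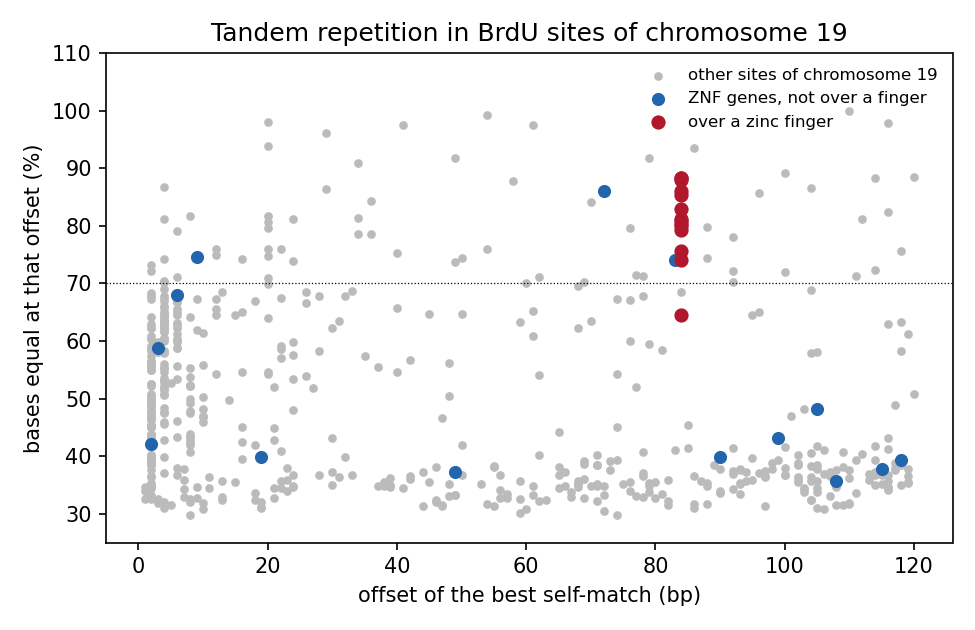
Best self-match of each BrdU site of chromosome 19 (y axis, percent of bases) against its offset (x axis, bp), for sites over a zinc finger (red), other sites in ZNF genes (blue) and all others (grey); the dotted line is the 70% limit. The 14 finger sites stand in 1 column at 84 bp, 13 of them above the line.

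The 15 other sites in ZNF genes were of mixed composition, with a median AT content of 54.6% (range 44.1 to 67.4%) and a median unique share of 100%. ZNF441 had its site in the last exon beyond the coding part, and ZNF574 over an exon of a transcript other than the canonical one. The longest ZNF gene, ZNF536 (489 kb), whose product is a zinc finger repressor of neuronal differentiation, held 2 sites off its exons. Of these, 1 of 2 peaks lay outside the canonical transcript, and 1 in the first intron matched itself at 9 bp (74.6%). In the q-arm clusters, ZNF565, ZNF428 and ZNF583 each had 1 site in an intron of the canonical transcript. ZNF568, ZNF875 and ZNF83 each had 1 off the exons and outside the canonical transcript. The ZNF428 site (chr19:43613511-43613840, minus strand), of 2 peaks and 97 bp from an exon, was an array of another kind, with 86.0% of bases equal at 72 bp. Its first 4 units are shown on the gene's strand, with capitals where a base differs from the unit before.
ZNF428 unit 1: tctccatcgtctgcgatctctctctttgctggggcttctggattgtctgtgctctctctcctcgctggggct
ZNF428 unit 2: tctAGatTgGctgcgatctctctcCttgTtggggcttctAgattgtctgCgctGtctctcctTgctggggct
ZNF428 unit 3: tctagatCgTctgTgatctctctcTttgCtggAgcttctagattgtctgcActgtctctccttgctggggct
ZNF428 unit 4: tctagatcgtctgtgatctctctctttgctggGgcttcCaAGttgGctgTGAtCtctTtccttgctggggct
The ZNF583 site (chr19:56404818-56405083, plus strand) lies in the first intron and is also of 2 peaks. It is shown as a site that the array rule did not call, since its best self-match was 42.0%. All of its 50-base words are unique. Short similar stretches do recur in it at uneven spacing, which a rule of 1 fixed offset does not count.
ZNF583: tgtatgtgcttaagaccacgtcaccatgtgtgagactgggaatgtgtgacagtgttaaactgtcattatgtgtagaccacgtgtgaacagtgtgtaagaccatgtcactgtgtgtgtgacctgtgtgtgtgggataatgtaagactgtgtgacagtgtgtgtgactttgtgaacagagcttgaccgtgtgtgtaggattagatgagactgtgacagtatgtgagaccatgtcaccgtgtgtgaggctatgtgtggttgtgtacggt

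Most sites in ZNF genes were single peaks. Of the 29, 25 consisted of 1 peak (86.2%, interval 69.4 to 94.5%), and the 4 of 2 peaks were in ZNF506, ZNF536, ZNF428 and ZNF583. Elsewhere on the chromosome 370 of 565 sites were single peaks (65.5%, interval 61.5 to 69.3%), and up to 5 peaks were stacked at 1 position, against 2 in ZNF genes. No site overlapped the window around the RefSeq start (GRCh38.p14) of any of the 218 ZNF genes that could be matched by symbol, which allows a share of up to 1.38%, and 3 of 949 other genes had one there (0.316%). The limit lies above the share of the other genes, so the 2 groups could not be told apart.

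Sites over coding exons were found in ZNF genes of other chromosomes as well. There, 44 of 267 ZNF genes had a peak (16.5%, interval 12.5 to 21.4%), with 10.2 sites per Mb of summed gene length, beside 21.2% of all protein-coding genes. Of their 143 sites, 12 overlapped a coding exon (8.39%, interval 4.87 to 14.1%). In the other protein-coding genes of those chromosomes 300 of 12968 sites did (2.31%, interval 2.07 to 2.59%). The share of coding bases was not at hand for either set, so these shares were not set against it. The 12 sites were in 11 genes, which include ZNF727, ZNF679 and ZNF107 on chromosome 7, ZNF595 and ZNF732 on chromosome 4, and ZNF717 on chromosome 3 with 2. The share on coding exons was thus below the 48.3% of chromosome 19, and the intervals did not overlap. It was near that of the chromosome 19 ZNF genes outside the centromere-proximal cluster, where 1 of 11 sites was on one (9.09%, interval 1.62 to 37.7%). Of the 18 genes for the KRAB corepressor and linked heterochromatin factors, 2 had a peak (11.1%, interval 3.10 to 32.8%), SETDB1 and CBX5, which codes for the heterochromatin protein HP1 alpha. That interval includes the 21.2% of all protein-coding genes. TRIM28 itself, 6.66 kb long on chromosome 19, had none, nor did DNMT1 and UHRF1 on the same chromosome.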

How the data were processed

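The deposited list of BrdU peaks holds positions in bp (chromosome, start, end) and no score or count, so the unit is other than a signal, and depth and the precision it gives are unknown. Per the study's methods, the authors aligned BrdU-Seq reads to hg38 with Bowtie2 and ran MACS2 separately for every timepoint, with the Input library as control. They then collected the peaks of all timepoints in one list; the methods say of the sequencing data in general that the repeats were checked for correlation and analysed together, but not how the peaks of the 2 repeats entered the list. How reads that match several places were treated is not given in the sources used here, which bears on repeated exons.

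The file counts starts from 0, and the positions printed here count from 1. Peaks that overlap or touch were merged into sites. Genes, exons and coding sequences came from GENCODE v44, and an overlap was at least 1 bp. Clusters, length classes (limits at 10, 20, 30 and 60 kb), the arm border (26 Mb) and the array rule (70% at up to 120 bp) were settings. Fingers were found in the coding sequence of the canonical transcript as C, 2 residues, C, 12 residues, H, 3 to 5 residues, H. Unique words are 50-mers of chromosome 19 that occur once in hg38 on either strand. The ratio divides the sites counted by those expected from the density of other genes of each length class. Where 0 was counted, the limit is 3 counts. Overlaps were checked against bedtools 2.31.1 and the array rule was tested on simulated sequence. Python 3.11.15, numpy 2.4.6 and scipy 1.17.1 were used.

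The genes named were the 10 with most peaks, the 5 with most sites per 10 kb among genes of at least 2 sites, the gene with most peaks in each cluster, the longest and shortest, the 3 longest without a peak, those with a peak over the last coding exon, the widest and deepest sites, the 3 gaps with most sites (ties by position; the tied gaps were added after their values were seen) and the corepressor genes; others were named after their values were seen. The members and lists were chosen with earlier results of these data known.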

Additional observations from a re-analysis of the deposited data

How the results depend on the processing

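The sparsity of sites in ZNF genes kept its direction under all alternatives except the one that compared them with other genes inside ZNF clusters, where the ratio was 1.94. Some of those other genes overlap ZNF genes and can share sites with them. The ratio to genes of like length was 0.206 with peaks in place of sites, 0.161 without tandem arrays, 0.199 with classes of length and AT content, 0.166 without sites over fingers, 0.154 without the centromere-proximal cluster and 0.922 for its genes alone. Without arrays the share of ZNF genes with a peak was 4.82% and the density 1.59 sites per Mb; without finger sites the density was 1.99. Gaps held 4.42 sites per Mb when clusters were joined over 1 Mb. The ratio of the arms was not stable in direction. It was 0.912 with peaks, 0.451 without arrays and 0.526 without finger sites. In genes alone it was 3.79 (0.529 without p-arm cluster 4), and in gaps alone 0.257 (0.719 without p-arm cluster 4). When each cluster was left out it ran from 0.752 to 1.37. It fell below 1 without p-arm cluster 4 (0.752), q-arm cluster 4 (0.875) or q-arm cluster 6 (0.906). The remaining alternatives stayed within the counting interval of the reported value. Alternatives without finger sites, by AT or unique words, by cluster or without tandem families were chosen after seeing the data. No paired analysis was possible because peaks carry no repeat number. The list gives no depth, so a count of 0 does not show that forks never pause there.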
